A study of Mus musculus with 12 samples.

Results

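Ribosome biogenesis factors are the proteins that make ribosomes without being part of them, and 59 of their genes were chosen by symbol from the RNA-seq table of mouse 3T9 fibroblasts. Of these, 58 were in the table of 21671 genes and 58 passed a filter that kept 12263 genes with a mean normalized count of at least 10. Noc2l was not matched in the table and has no value here. The genes fall into 29 factors of the small ribosomal subunit, 22 factors of the large subunit, 3 factors of subunit export (Rrp12, Ltv1 and Nmd3) and 4 abundant or regulatory nucleolar proteins (Ncl, Npm1, Npm3 and Lyar).

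The cells were immortalized mouse embryonic fibroblasts of the 3T9 line, serum-starved and highly confluent, carrying MycER at all times. In this fusion, Myc is joined to the ligand-binding part of the estrogen receptor and stays inactive until 4-hydroxytamoxifen (OHT) is given. The cells were also transduced with a doxycycline-inducible vector and selected for it, so that doxycycline (dox) induces YAPS127A, a YAP mutant that the Hippo pathway kinases cannot phosphorylate at the serine that keeps YAP in the cytoplasm. Both constructs were carried by every group, the controls included. There were 4 groups with 3 libraries each, which were mock, 400 nM OHT, 2 µg/mL dox, and OHT with dox, and the comparisons ask how Myc and YAP act together and apart in cells that are held back by confluence. No dox-treated cells lacking the vector were analysed here, and effects of YAPS127A and of doxycycline itself cannot be told apart. Likewise no OHT-treated cells lacking MycER were analysed, and effects of MycER and of OHT itself cannot be told apart. Nothing in the labels says whether the 3 libraries of a group were grown as separate cultures.

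Ribosomes are assembled mostly in the nucleolus, where RNA polymerase I makes 1 long precursor RNA that is folded, modified and cut while proteins join it. The small-subunit processome, built around the U3 small nucleolar RNA and the UTP-A and UTP-B complexes, shapes the small-subunit end of the precursor, and other factors, among them the PeBoW complex and several GTPases, build the large subunit before export factors carry both through the nuclear pores. Many genes of this pathway are long-known targets of Myc, which binds the E-box sequence in promoters, and YAP acts on DNA through TEAD proteins.

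The table gives no value per library. For each treatment it holds the authors' mean over the 6 libraries of its comparison with mock, 3 mock and 3 treated, and that pooled mean is the level used below, in normalized counts (reads divided by the size factor of the library). Because the same mock libraries stand in all 3 means, the difference between pooled means of separate comparisons comes from their treated libraries, and 2 times that difference is the difference between the treated means. The ratio of 2 pooled means (the pooled ratio) is diluted by the mock reads, so that the ratio of the treated levels lies at least as far from 1. A gene was counted as higher at a pooled ratio over 1.1 and as lower under 0.909. The error beside a value is the largest standard error that read counting alone can give it. The spread between libraries is not known from these means, so no difference was tested and no comparison with mock alone was made. In such bulk RNA, fewer cells of a type and less RNA per cell cannot be told apart.

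Depth was similar between libraries, with size factors of 0.930 to 1.09 in the mock, 0.814 to 1.13 in the OHT, 0.942 to 1.06 in the dox and 0.940 to 1.02 in the OHT+dox libraries, each within its own comparison. Over all genes the deposited means of the comparisons summed to 8299686 (OHT), 8196013 (dox) and 8184510 (OHT+dox) normalized counts. Read totals per library are unknown. The pooled means of the ribosome biogenesis genes ran from 174 to 2475, and the counting error of their ratios from 0.0124 to 0.0585. Of 12 fibroblast markers 10 passed the filter, among them the collagen genes Col1a1 and Col3a1, while Thy1 and Lum did not. All 15 epithelial and endothelial markers were under the filter, as were 5 of 7 macrophage markers, including Ptprc and Emr1 (the older symbol of Adgre1). The summed fibroblast markers stood at 38162 with OHT, 39721 with dox and 37127 with OHT+dox in the pooled means, and their part in the results below was not tested.

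To show what lies upstream of these genes, promoters from RefSeq on the GRCm38.p6 build (250 bases before to 50 bases after the gene start, written in the direction of transcription) were matched for 48 of the 58 genes. The files were made on mm9, and no coordinate of the files is used. The 4 promoters below are those of the genes with an E-box that had the highest OHT+dox to dox ratio in their class, Cirh1a (named Utp4 in RefSeq), Nle1 and Nmd3, and that of Rrp9, which had the highest such ratio of all. Capitals mark the E-box CACGTG, and none of the 4 holds GGAATG, the core of the TEAD motif, on either strand.
Cirh1a, chr8:106893390-106893689, plus strand: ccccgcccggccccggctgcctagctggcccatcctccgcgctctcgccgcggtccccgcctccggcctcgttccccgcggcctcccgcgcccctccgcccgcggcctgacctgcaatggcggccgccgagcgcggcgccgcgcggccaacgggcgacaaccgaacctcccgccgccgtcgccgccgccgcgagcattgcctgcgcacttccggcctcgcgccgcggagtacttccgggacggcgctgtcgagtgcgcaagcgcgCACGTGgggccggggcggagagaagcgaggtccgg
Nle1, chr11:82908346-82908645, minus strand: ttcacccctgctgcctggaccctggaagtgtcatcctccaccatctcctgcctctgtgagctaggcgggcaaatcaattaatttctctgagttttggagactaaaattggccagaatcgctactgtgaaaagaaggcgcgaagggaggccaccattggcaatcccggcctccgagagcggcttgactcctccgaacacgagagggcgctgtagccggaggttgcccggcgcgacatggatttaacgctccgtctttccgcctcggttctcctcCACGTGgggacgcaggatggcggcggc
Nmd3, chr3:69721805-69722104, plus strand: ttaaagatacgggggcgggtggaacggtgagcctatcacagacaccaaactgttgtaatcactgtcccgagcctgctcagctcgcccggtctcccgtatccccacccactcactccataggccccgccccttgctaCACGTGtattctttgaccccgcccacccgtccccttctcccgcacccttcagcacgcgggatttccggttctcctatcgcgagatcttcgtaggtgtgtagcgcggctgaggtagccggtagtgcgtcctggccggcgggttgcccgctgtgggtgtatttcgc
Rrp9, chr9:106477059-106477358, plus strand: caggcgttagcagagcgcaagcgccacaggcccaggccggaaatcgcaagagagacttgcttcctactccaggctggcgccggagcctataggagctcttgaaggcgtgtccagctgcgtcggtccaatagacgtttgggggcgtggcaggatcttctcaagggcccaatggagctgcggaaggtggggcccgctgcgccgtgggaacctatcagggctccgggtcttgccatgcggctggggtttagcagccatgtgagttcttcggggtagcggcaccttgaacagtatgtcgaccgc

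The E-box CACGTG, which reads the same on both strands, lay in a promoter of 12 of the 48 matched genes (25%), against 8.09% of all genes with a promoter and 11.8% of the tested genes with one. Counted by promoter, it was in 12 of the 52 promoters of the group (23.1%) and in 7.15% of all 32851 promoters. In the small-subunit class 7 of 25 genes held it (Cirh1a, Imp4, Nol11, Tsr1, Utp18, Utp20 and Wdr43), in the large-subunit class 3 of 18 (Nle1, Nop2 and Pes1), and both matched export genes did, Ltv1 and Nmd3. It began 16 bases into the transcript for Cirh1a, 24 for Nle1 and 29 for Ltv1, and 114 bases before the start for Nmd3. GGAATG or its reverse complement lay in the promoters of 3 of the 48 genes (6.25%), Emg1, Lyar and Rrp15. It lay in those of 16.6% of all genes with a promoter and 14.4% of the tested genes with one. A match describes the letters of these windows and does not show that a factor binds there.

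All 58 genes had their highest pooled mean with OHT and dox together, as did 33.3% of all genes tested. In 48 of them (82.8%) the order was dox, then OHT, then OHT+dox, an order seen in 24.0% of all genes, and in the other 10 (17.2%, against 9.35%) the OHT mean was the lowest. On the scales as deposited, 57 of the 58 were highest with OHT+dox, Imp3 turning to just under its OHT mean, and the OHT mean was under the dox mean in 5. With the other scalings tried, 58 were highest with OHT+dox. Summed over the group, the pooled means were 41546 with dox, 44775 with OHT and 49744 with OHT+dox. The 3 comparisons between treatments share libraries, since every treated group enters a pair of them, and they are not independent of each other.

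**Figure D1:**
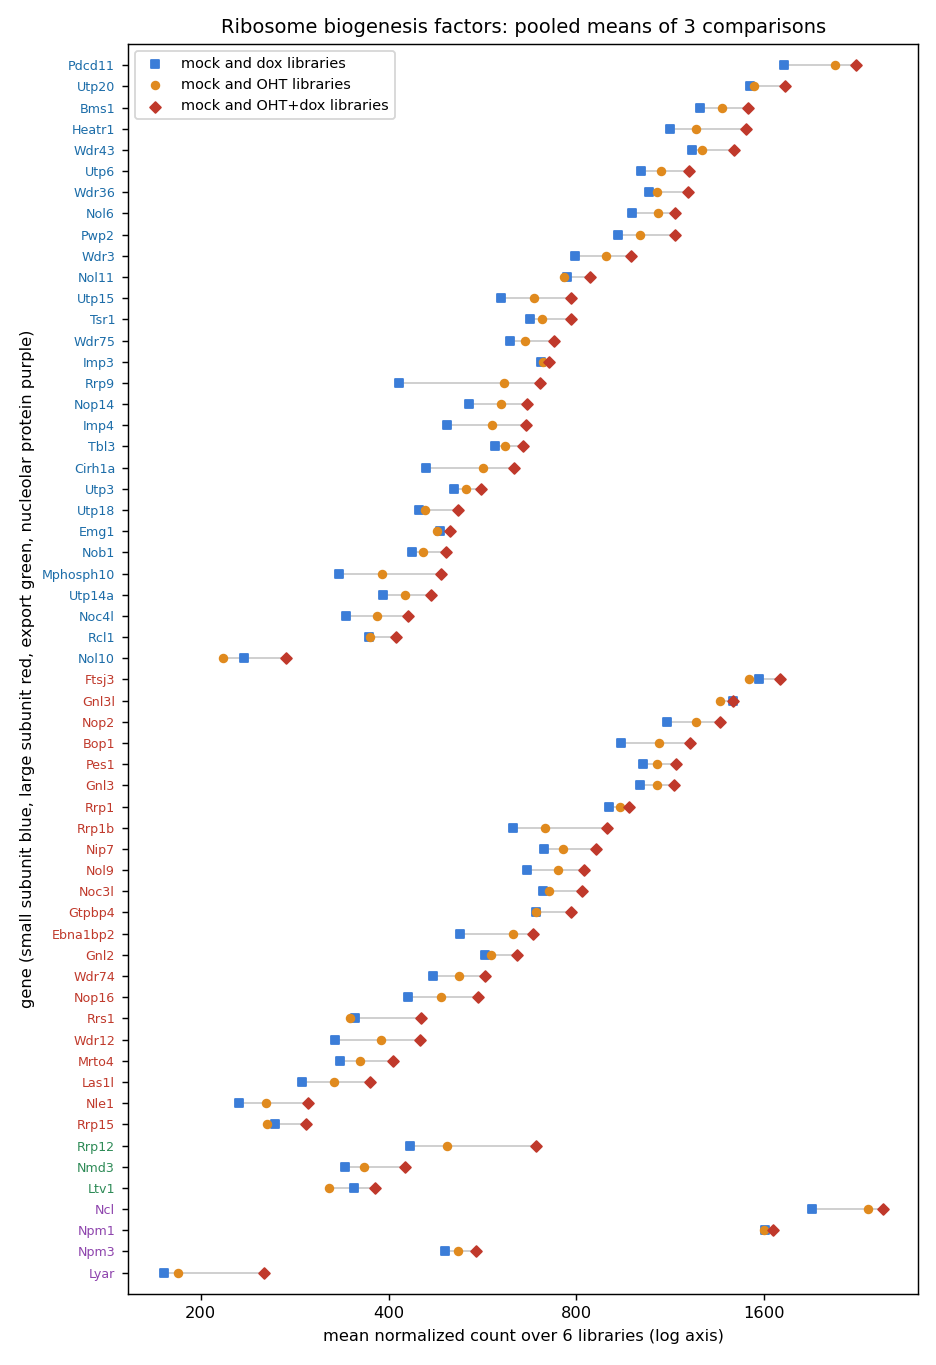
Mean normalized count over the 3 mock and 3 treated libraries of each comparison (x axis, log scale) of the 58 genes (y axis), with squares for dox, circles for OHT and diamonds for OHT+dox, on a common scale. The diamond is the rightmost point in every gene on this scale (on the scales as deposited Imp3 is the exception), and the widest gap between dox and OHT+dox is that of Rrp9, from 415 to 699.

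With dox added to OHT, most ribosome biogenesis factors had more mRNA. In the OHT+dox comparison 40 of the 58 pooled means were over 1.1 times those of the OHT comparison, against 8.86% of all genes, and none was under 0.909, against 10.7% of all genes. The median pooled ratio was 1.12, with quartiles of 1.09 and 1.14, and over all genes the median was 0.999. Since the ratio is diluted by mock reads, the treated levels themselves differed by at least as much. The treated difference was over 2 of its counting errors in 55 of the 58, against 18.3% of all genes, the exceptions being Imp3, Emg1 and Rrp1. Passing 2 counting errors depends on the read count. At a highest pooled mean of at least 252, as in all 58, 1954 of 7840 genes passed. Of the genes counted as higher, 13 lay within 1 counting error above the threshold and 5 of the others within 1 below it. Nearest to it on either side were Wdr74 at 1.0993 and Utp14a at 1.1002. Leaving the comparisons on the scales on which they were deposited, where the factor of 0.979 on the OHT comparison is left out, gave 25 genes.

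Rrp12, an export factor of both subunits, stood highest among them. Its pooled means were 432 with dox, 497 with OHT and 689 with OHT+dox, and the OHT+dox libraries were 385 ± 28.2 normalized counts above the OHT libraries, a pooled ratio of 1.39 ± 0.0333. Rrp12 was number 52 of 12263 in this ratio, and Lyar, a nucleolar zinc finger protein of proliferating cells, was number 61. Lyar stood at 174 with dox, 184 with OHT and 252 with OHT+dox, so that both single treatments were close to each other and the combination was apart at a ratio to OHT of 1.37 ± 0.0542. Rrs1, which brings the 5S ribonucleoprotein into the large subunit, followed with 353, 347 and 450 normalized counts in the same order and a ratio of 1.30 ± 0.0378.

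Comparing dox with and without OHT gave larger steps. In this pair 50 of the 58 genes were higher with OHT+dox, against 18.6% of all genes, and none was lower, against 14.4%. The median pooled ratio was 1.19, with quartiles of 1.13 and 1.29, and the median over all genes was 0.999. The highest was that of Rrp9, a protein bound to the U3 RNA, at 1.68 ± 0.0429, where the OHT+dox libraries were 568 ± 27.4 normalized counts above the dox libraries. Gnl3l, a nucleolar GTPase, stood at the other end, at 1424 with dox and 1427 with OHT+dox, a difference of 4.61 ± 43.9 that lies within counting error. The other genes not counted as higher were Nol11, Imp3, Emg1, Ftsj3, Rrp1, Ltv1 and Npm1. Of these, Nol11 was the nearest below the threshold at 1.091 and Utp3 the nearest above it at 1.104.

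Between OHT and dox alone, fewer genes passed the threshold. In 22 of the 58 genes the OHT pooled mean was over 1.1 times the dox pooled mean, against 17.5% of all genes, and none was under 0.909, against 10.9%. The median was 1.07, and 1.01 over all genes. In 48 genes the OHT mean was the higher one and in 10 the lower. Of 7840 genes with a highest pooled mean of at least 252, 1928 differed by over 2 counting errors upwards and 2050 downwards. Among the 58, the difference was over 2 counting errors upwards in 36 genes, against 22.4% of all genes. It was so downwards in 3 (Ftsj3, Gnl3l and Ltv1), against 19.7%. On the scales as deposited 26 genes were over 1.1, with a median of 1.095, so that OHT to dox was then level with OHT+dox to OHT (25 genes and 1.095), and 5 genes in place of 10 had the lower mean with OHT. The lowest was Ltv1, which helps assemble and release the exported small subunit, with 352 normalized counts with dox and 321 with OHT, a ratio of 0.912 ± 0.0287. Of the 22 genes, 8 lay within 1 counting error above the threshold, and 7 of the others lay within 1 below it. Heatr1 at 1.0996 and Wdr74 at 1.1002 were the nearest on either side.

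**Figure D2:**
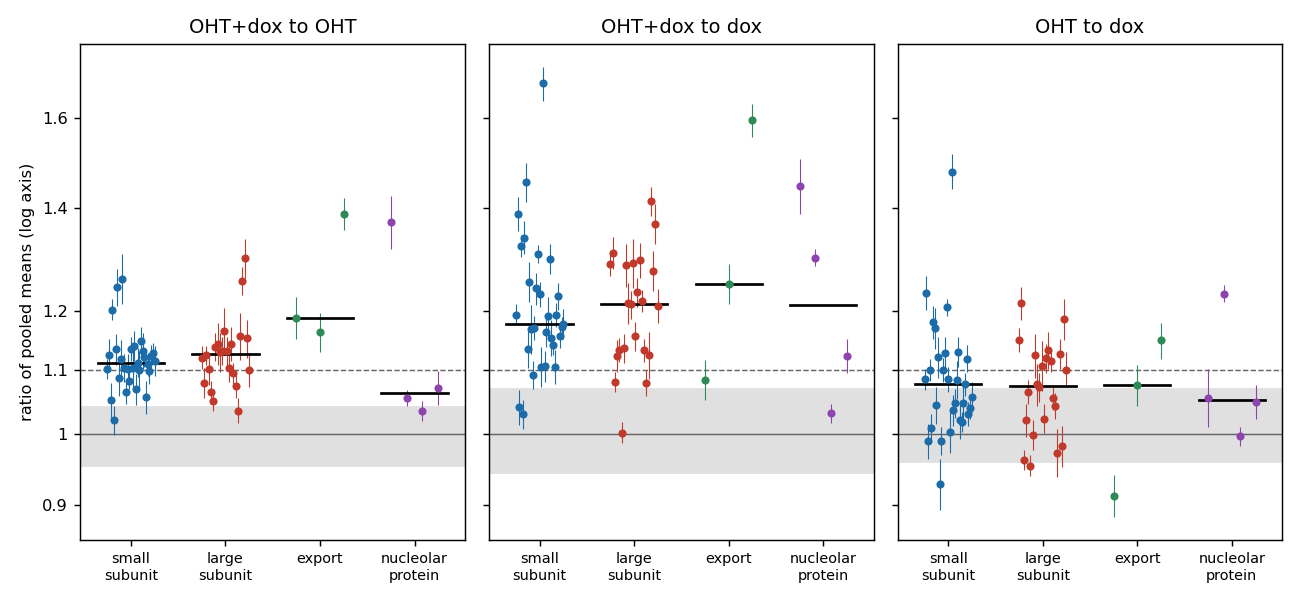
Pooled ratio of the 58 genes (points, y axis on a log scale) in 3 comparisons between treatments, by class, with the largest counting standard error as bars, the class median as a black line, the quartiles of all genes as a grey band and the threshold of 1.1 dashed. All points of the left and middle panels lie above 1 (on the scales as deposited Imp3 falls under it in the left panel), and the medians of both subunit classes in the left panel are 1.11 and 1.13.

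Small-subunit and large-subunit factors had medians close together. For OHT+dox to OHT, 21 of 29 small-subunit genes and 15 of 22 large-subunit genes were higher, with medians of 1.11 and 1.13. For OHT+dox to dox these were 26 and 19, with medians of 1.18 and 1.21. For OHT to dox they were 10 of 29 (34.5%) and 10 of 22 (45.5%), with medians of 1.08 and 1.07. Over all genes, the shares were 8.86%, 18.6% and 17.5% in the same order of pairs. The 3 export factors had a median of 1.19 for OHT+dox to OHT and all were over 1.1, while of the 4 nucleolar proteins only Lyar was. The classes were not tested against each other.

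Within the small subunit, in the UTP-A complex, which binds the start of the precursor and is tied to its transcription, all 6 genes were over 1.1 for OHT+dox to OHT, from Nol11 at 1.103 to Heatr1 at 1.202 ± 0.0188. Heatr1, a large repeat protein, stood at 1130 with dox, 1243 with OHT and 1494 with OHT+dox, and the OHT+dox libraries were 503 ± 42.8 above the OHT libraries. Cirh1a was 459, 566 and 636 in the same order, and of the 6 it had the highest ratio of OHT to dox, 1.23 ± 0.0316. Nol11 was at 772, 764 and 842, so the single treatments differed by less than counting error. The others, Wdr43, Wdr75 and Utp15, had ratios of 1.13, 1.11 and 1.15 for OHT+dox to OHT and of 1.17, 1.18 and 1.30 for OHT+dox to dox.

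The UTP-B complex, which joins next and holds the folding RNA, held 6 genes that lay closer together. For OHT+dox to OHT, 4 of its 6 genes were over 1.1, with ratios from 1.07 for Tbl3 to 1.13 for Pwp2, and for OHT+dox to dox all 6 were, from 1.11 for Tbl3 to 1.23 for Pwp2. Pwp2 stood at 934 with dox, 1013 with OHT and 1149 with OHT+dox. Wdr3 was the only one of the 6 over 1.1 for OHT to dox, at 1.12 ± 0.0222, with pooled means of 797, 891 and 977. Utp6, Utp18 and Wdr36 had OHT to dox ratios of 1.076, 1.02 and 1.0296.

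Genes of the U3 particle ranged from nearly level to the highest ratio of the group. Mpp10 (gene Mphosph10), Imp3 and Imp4 form 1 complex that guides U3 onto the precursor, yet Mphosph10 stood at 334 with dox, 390 with OHT and 485 with OHT+dox, Imp4 at 497, 586 and 665, and Imp3 at 702, 707 and 722. The OHT+dox to dox ratios were 1.45 ± 0.0425, 1.34 ± 0.0326 and 1.029 ± 0.0224, and for Imp3 all 3 differences were within 2 counting errors. Rrp9 was at 415 with dox, 613 with OHT and 699 with OHT+dox. Its OHT to dox ratio of 1.48 ± 0.0384 was the highest of the group and number 167 of all genes, while dox added to OHT gave a ratio of 1.14 ± 0.0258.

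Among the other processome factors, Nol10 stood at 234 with dox, 217 with OHT and 274 with OHT+dox. The OHT libraries differed from the dox libraries by −33.8 ± 17.3 normalized counts, within 2 counting errors. Its OHT+dox to OHT ratio of 1.26 ± 0.0466 was the highest of the small subunit. Pdcd11, which acts in the assembly of both subunits, stood at 1721, 2077 and 2248, so that the OHT+dox libraries were 1053 ± 51.8 normalized counts above the dox libraries and 342 ± 53.7 above the OHT libraries. The methyltransferase gene Emg1, at 483, 478 and 502, was nearly level. Nop14 and Noc4l, whose proteins bind each other, had alike ratios of OHT+dox to dox, 1.24 ± 0.0296 and 1.25 ± 0.0373, and of OHT to dox, 1.13 and 1.12. The partners Bms1, a GTPase, and Rcl1 had OHT+dox to OHT ratios of 1.101 and 1.102, and OHT to dox ratios of 1.084 and 1.002. Nol6, with 984, 1082 and 1151, had an OHT to dox ratio of 1.1002. Utp3, Utp14a and Utp20 had OHT+dox to OHT ratios of 1.06, 1.1002 and 1.12. Of the late factors that finish the small subunit in the cytoplasm, Tsr1 had a ratio of 1.11 and the endonuclease gene Nob1 one of 1.09.

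In the large subunit, the PeBoW complex of Pes1, Bop1 and Wdr12, needed to cut and fold the large-subunit precursor, showed unequal steps in its 3 genes. Wdr12 stood at 328 with dox, 389 with OHT and 449 with OHT+dox, Bop1 at 943, 1084 and 1214, and Pes1 at 1021, 1077 and 1156. The OHT+dox to dox ratios were 1.37 ± 0.0408, 1.29 ± 0.0230 and 1.13 ± 0.0200, and those of OHT+dox to OHT were 1.15, 1.12 and 1.07. All 3 genes were in the order dox, OHT, OHT+dox.

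The highest large-subunit ratios for dox added to OHT were those of Rrs1, given above, Rrp1b and Nle1. Rrp1b stood at 633 with dox, 712 with OHT and 895 with OHT+dox, a ratio to OHT of 1.26 ± 0.0257 and to dox of 1.41 ± 0.0302. Its paralog Rrp1 was at 901, 939 and 972, with ratios of 1.035 ± 0.0193 and 1.08 ± 0.0205, so that the paralogs were apart by more than their counting errors in both. Nle1, a partner of the large remodelling enzyme of the maturing subunit, stood at 230, 255 and 297. Ebna1bp2 was at 521, 632 and 682, and its OHT to dox ratio of 1.21 ± 0.0293 was the highest of the class. Other genes of the class over 1.1 for OHT to dox were Bop1 and Wdr12, Nop2 at 1.11, Nop16 at 1.13, Nle1 at 1.11, Rrp1b at 1.13, Wdr74 at 1.1002, and both genes of the enzyme pair that cuts the internal spacer next to the large-subunit RNA, Nol9 at 1.12 and Las1l at 1.12.

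Of the 4 nucleolar GTPase genes, 2 were over 1.1 for OHT+dox to OHT, 3 for OHT+dox to dox and none for OHT to dox. Gtpbp4 stood at 690 with dox, 688 with OHT and 783 with OHT+dox, so the single treatments were level and the combination was above both at 1.14. Gnl2 was at 571, 583 and 642, and Gnl3, which encodes nucleostemin, at 1012, 1078 and 1146. Gnl3l was lower with OHT, 1358, than in either comparison with dox, 1424 and 1427. The methyltransferase gene Ftsj3 also had its lowest mean with OHT, 1511, against 1572 with dox and 1698 with OHT+dox. Noc3l, Nip7, Mrto4 and Rrp15 had OHT+dox to OHT ratios of 1.13, 1.13, 1.13 and 1.16.

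The 3 export factors did not share a pattern between the single treatments. Nmd3, the adaptor that links the large subunit to the exportin, stood at 340 with dox, 365 with OHT and 425 with OHT+dox, with ratios of the combination to OHT of 1.16 ± 0.0339 and to dox of 1.25 ± 0.0374. Ltv1 was at 352, 321 and 381, so its ratio to OHT, 1.19 ± 0.0367, was higher than its ratio to dox, 1.08 ± 0.0329. For Rrp12 the ratio to dox was 1.59 ± 0.0402, and OHT to dox 1.15 ± 0.0308.

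Nucleolin and nucleophosmin, the most abundant nucleolar phosphoproteins, had unlike values. Ncl stood at 1905 with dox, 2346 with OHT and 2475 with OHT+dox. The OHT libraries were 882 ± 53.2 normalized counts above the dox libraries, a ratio of 1.23 ± 0.0155, and dox added to OHT gave a further 259 ± 56.7, a ratio of 1.06 ± 0.0124. Npm1 was at 1602, 1596 and 1651, with ratios of the combination of 1.034 ± 0.0148 to OHT and 1.031 ± 0.0149 to dox. Npm1 has processed pseudogenes, and it is not stated how shared reads were counted, so its values are uncertain. Its relative Npm3 had 492, 516 and 553.

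**Figure D3:**
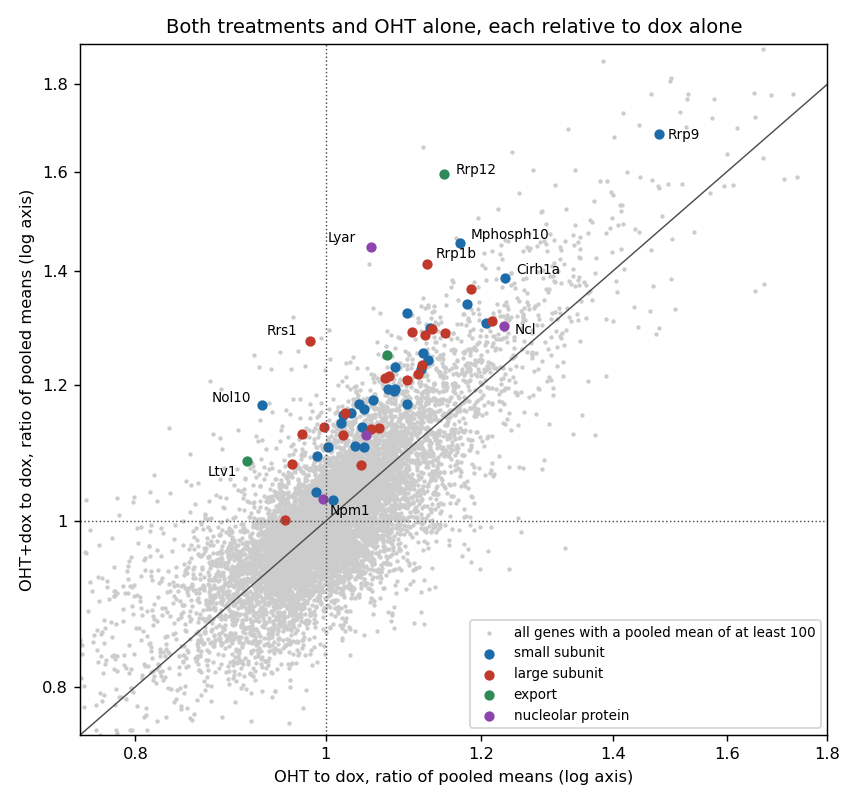
Pooled ratio of OHT to dox (x axis) and of OHT+dox to dox (y axis), both on log scales, of the 58 genes by class and, in grey, of all genes with a pooled mean of at least 100 that fall within the axes. All 58 genes lie above the diagonal, where OHT+dox equals OHT (Imp3 would lie below it on the scales as deposited), with Rrp9 at 1.48 and 1.68, Rrp12 at 1.15 and 1.59, and Lyar at 1.055 and 1.45. Both axes share the dox comparison.

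How far OHT alone reached on the way from dox to the combination can be read from the 3 means without the mock level, as the OHT to dox difference in percent of the OHT+dox to dox difference. Among the 50 genes with OHT+dox over 1.1 times dox, the median was 38.3%, from −42.8% for Nol10 to 77.3% for Ncl. Ncl, Rrp9 (69.7%), Ebna1bp2 (69.3%), Pdcd11 (67.5%) and Cirh1a (60.3%) had most of the step with OHT alone, and in all 13 genes were over 50%. Rcl1 (2.26%), Lyar (12.3%), Utp20 (12.4%), Utp18 (13.0%), Noc3l (14.3%) and Gnl2 (16.4%) had little of it, and Rrs1, Rrp15, Gtpbp4 and Nol10 were below 0. In these 4 the OHT mean was under the dox mean by less than 2 counting errors, and on the scales as deposited it was above it in Rrs1 and Gtpbp4. The genes from Rcl1 to Gnl2 also had OHT and dox means less than 2 counting errors apart, for Rcl1 1.76 ± 22.3 normalized counts. Their positions are therefore uncertain, and so is their order. None of the 50 was over 100%, which follows from their highest mean being that with OHT+dox and is no further result. Over all 2277 genes chosen the same way the median was 71.7% and 543 were over 100%. Among the 1214 of them whose highest pooled mean was at least that of Lyar, the lowest of the group (252), the median was 64.0%. Of these 1214, 163 were over 100%. Both medians take in genes over 100%, where none of the group lies, so they are not like for like with 38.3%. No median over only genes highest with OHT+dox was worked out. The medians of the small-subunit and large-subunit genes were 38.3% and 41.4%. With the values on their deposited scales the median of the group was 51.3%. The medians over all genes were not worked out on those scales, so 51.3% has no matching value here.

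**Figure D4:**
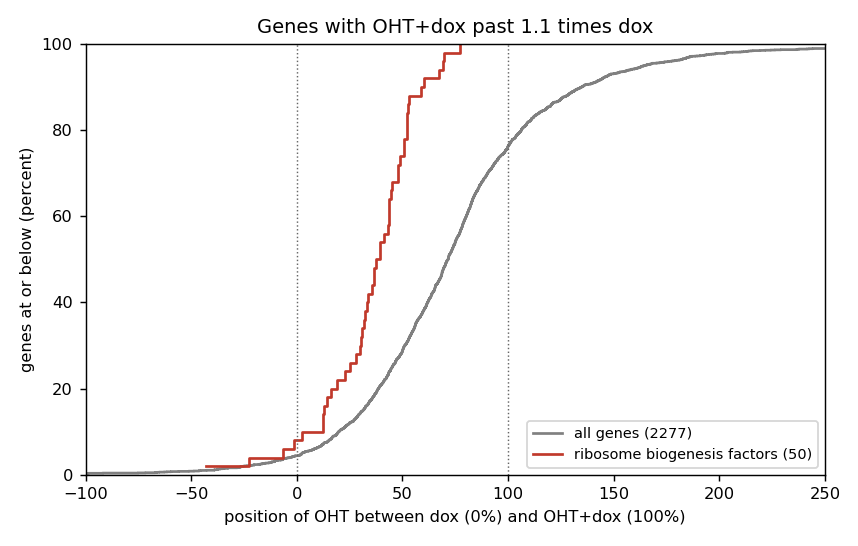
Cumulative share of genes (y axis, percent) by the position of OHT between dox (0%) and OHT+dox (100%) on the x axis, for the 50 ribosome biogenesis genes (red) and all 2277 genes (grey) with OHT+dox over 1.1 times dox. The red line ends at 77.3% and the grey line passes 100% with 543 genes to its right.

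Other genes of the pathway, 58 further factors matched of 59 listed, were described in the same way. For OHT+dox to OHT 23 of the 58 were higher and none lower, against 8.86% and 10.7% of all genes, with a median of 1.09. For OHT+dox to dox 40 were higher and none lower, against 18.6% and 14.4% of all genes, with a median of 1.15. For OHT to dox 12 were higher (20.7%), against 17.5% of all genes. That share was 10.6% among the 7840 genes with a highest pooled mean of at least 252. Of the 58, 2 were lower in that pair, against 10.9% of all genes, and their median was 1.04. The highest for dox added to OHT were Pno1, a late small-subunit factor, at 315 with OHT and 392.1 with OHT+dox, Urb1, an early large-subunit factor, at 527 and 652, and Bysl, which acts in small-subunit maturation, at 386 and 476. The lowest were Nsa2, at 1401 and 1402, and Zfp622, at 915 and 918. The 2 lower for OHT to dox were Pno1, at a ratio of 0.848 ± 0.0265, and the helicase gene Ddx52, at 0.898, which was named after its value was seen.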

How the data were processed

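Total RNA of 12 libraries was sequenced with the poly(A) step left out. The kit marks no strand, and reads of overlapping or antisense genes are mixed. The submitters' processing notes name TopHat2 2.0.8, the mm9 build, featureCounts 1.4.5-p1 and DESeq2, with which the authors compared each treatment with mock. The authors' deposited table holds, for each of 3 comparisons, the mean normalized count over 6 libraries, a log2 fold change, an adjusted p-value and a call. The fold changes, p-values and calls are the authors' own comparisons and were not used.

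Genes with a single read in 1 library gave the size factors, and those of the shared mock libraries put the comparisons on 1 scale (factors of 0.979 for OHT and 0.999 for dox). The mock libraries deviated from these factors by at most 0.00564, so their reads cancel to within that share. Genes with a mean of at least 10 in 1 comparison were kept and 4 lines with repeated symbols were left out. Tests per library, set down as the first choice, were not possible with pooled means, and a ratio threshold of 1.1 was used in their place. The counting error takes all reads of a pooled mean as treated reads, the case in which it is largest for differences and ratios, and covers counting only. The steps were tested on simulated data. The genes, classes, lists and thresholds were chosen with earlier results of these data known. The rule for named genes took the extremes of each class, the members past 1.1 for OHT to dox, those nearest to the threshold, the subunits of UTP-A, UTP-B and PeBoW, and Ncl and Npm1. The other members are named to account for each. Promoters came from RefSeq (GRCm38.p6). Python 3.11.15, numpy 2.4.6 and pandas 2.3.3 were used.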

Additional observations from a re-analysis of the deposited data

How the results depend on the processing

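No paired analysis was possible because the table holds no values per library, although the labels number the replicates 1 to 3 in each group, and for the same reason no library could be left out. The counts over a ratio of 1.1 were 40, 50 and 22 of 58 genes for OHT+dox to OHT, OHT+dox to dox and OHT to dox. With a threshold of 1.2 they were 7, 28 and 5, against 2.23%, 7.93% and 6.75% of all genes, and with one midway between 1 and 1.1 they were 55, 54 and 34, against 21.2%, 30.0% and 30.6%. With the values as deposited, on no common scale, the OHT+dox to OHT count was 25 and its median 1.095, against 1.12, the OHT to dox count was 26, and the median position of OHT between dox and OHT+dox was 51.3%, against 38.3%. This alternative leaves in the scale difference between the comparisons. Scaling to equal sums gave 33, 50 and 23 genes, and scaling to a median ratio of 1 gave 41, 50 and 22. For OHT+dox, 57 of 58 genes were highest as deposited (Imp3 was not) and 58 in the other scalings. Having no filter, or asking for a mean of at least 50 in all comparisons, could not change these counts and medians. No pooled mean of the 58 genes was under 174. Asking also for a difference over 2 counting errors, chosen after seeing the data, gave 40, 50 and 22. With a median counting error of 0.0257, a ratio over 1.1 could hardly fail this, so the setting tells little. No median ratio changed direction under any of these settings. Depth sets counting errors of 0.0124 to 0.0585 on the ratios, and the spread between libraries is unknown.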
